A study of Mus musculus with 18 samples.

Results

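The insulin and insulin-like growth factor (IGF) receptors and their adaptors were followed here through 5 genes: the receptors *Insr*, *Igf1r* and *Insrr* and the adaptors *Irs1* and *Irs2*. They were chosen by name, and their UCSC identifiers were taken from the table of signalling genes that accompanies the paper. All 5 were present among the 12064 genes of the mesoderm table, and 4 of the 5 among the 11231 genes of the neural tube and forelimb table. *Insrr* was not analysed in those 2 tissues here.

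*Insr* and *Igf1r* encode receptor tyrosine kinases that bind insulin, IGF1 and IGF2 at the cell surface. *Insrr* encodes a related receptor that does not bind insulin or the IGFs and responds to alkaline pH. An activated receptor phosphorylates the docking proteins IRS1 and IRS2, which recruit phosphatidylinositol 3-kinase (PI3K) and Grb2 and so feed the PI3K-Akt and Ras-ERK pathways. In the embryo, IGF signalling through *Igf1r* and *Insr* is known as a main driver of growth.

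All samples were from mouse embryos at E11.5. For the mesoderm, GFP+ cells were sorted from embryos that carried the *R26-mTmGflox/+* reporter and the *Tg(T-cre)1LWD/J/+* transgene, in which Cre driven by *T* switches on membrane GFP in cells descended from the primitive streak, limb mesoderm included. The neural tube (NT), taken between the level of the hind limb and the rhombomeres, and the forelimb bud (FL) were dissected from FVB embryos. They were not sorted, so each holds every cell type of the piece and the FL shares a lineage with the sorted mesoderm. Each of the 3 tissues was measured in 3 replicates by RNA-Seq, which counts mRNA, and by Ribo-Seq, which counts ribosome-protected fragments (RPFs), and material for Ribo-Seq was lysed in cycloheximide, which halts ribosomes. The study calls them biological replicates, and the labels do not say which embryos each came from. Since NT and FL are mixtures of cells, a lower level can mean fewer cells of a type or less RNA per cell, and these cannot be told apart.

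Values are reads on the coding sequence (CDS), which the authors divided by a library size factor (normalized reads). RNA-Seq libraries held 24555103 to 50136443 reads on genes and Ribo-Seq libraries 11000015 to 31993255. Translational efficiency (TE) is the log2 ratio of RPFs to mRNA, given within a tissue relative to the median gene of that tissue. A gene was past the test at a Benjamini-Hochberg adjusted p under 0.05 in limma over all genes, and TE-low when it was also at least 3-fold below the median. Of 6 mesenchyme and limb markers, 5 were higher in every FL library than in every NT library, with *Hoxd13* mRNA at 6659 to 9600 normalized reads in FL and 54.6 to 192 in NT, and *Tcf15* overlapped, at 83.2 to 143 in FL and 53.0 to 436 in NT. The neural marker *Fabp7* was at 3054 to 6069 in NT, 24.8 to 103 in FL and 107 to 126 in the mesoderm. *Kdr*, a marker of endothelium, was present in all 3 tissues, at 1475 to 1950 in NT, 1178 to 1695 in FL and 570 to 1131 in the mesoderm, and so was the globin gene *Hba-x* of red blood cells. The mesoderm values were normalized separately, so their size is not compared with that in NT and FL.

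The Ribo-Seq libraries of a tissue were not all alike, and this bears on every result in NT and FL. On log2 values over 11231 genes, FL Ribo-Seq replicate 3 had correlations of 0.886 and 0.896 with replicates 1 and 2, which had 0.976 with each other. It lay close to the FL RNA-Seq libraries, with correlations of 0.90 to 0.91, whereas FL replicates 1 and 2 had 0.73 to 0.74. In NT the libraries closest to RNA-Seq were replicates 1 and 2, at 0.90 to 0.92, and replicate 3 had 0.83 to 0.86. Mesoderm Ribo-Seq replicate 2 had 0.77 to 0.83, against 0.85 to 0.89 in the other two. No label marks these libraries as a batch. The main results that rest on FL Ribo-Seq replicate 3 are therefore given with and without it, a choice made after the values were seen.

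The CDS of each gene begins at the start codon below, and reads were counted after its first 15 codons. These starts are shown because initiation sets how many ribosomes enter a CDS. The sequences are from the longest coding transcript of each gene in GENCODE (GRCm38, the build of mm10), with 12 bases before and 9 after the start codon, which is in capitals.
Insr: actcctactgctATGggcttcggg
Igf1r: caaataaaaggaATGaagtctggc
Insrr: agggctgaggtcATGgcagtgcct
Irs1: ctccgcagcagcATGgcgagccct
Irs2: gaagcggcggcgATGgctagcgcg
These start codons lie at chr8:3279126-3279128 (minus strand, *Insr*), chr7:67952859-67952861 (plus, *Igf1r*), chr3:87797424-87797426 (plus, *Insrr*), chr1:82290491-82290493 (minus, *Irs1*) and chr8:11008428-11008430 (minus, *Irs2*). All 5 had an A or G 3 bases before the start codon, as did 90.4% of 157 signalling genes with an annotated start. A G directly after the start codon as well was present in 4 of the 5, all but *Igf1r*, and in 48.4% of the 157.

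The 3 receptor genes share a similar architecture that the adaptors lack. *Insr* spans chr8:3122061-3279617 with 21 coding exons and a CDS of 4116 nt, *Igf1r* spans chr7:67952827-68233668 with 21 coding exons and 4107 nt, and *Insrr* spans chr3:87796951-87816101 with 22 coding exons and 3900 nt. *Irs1*, at chr1:82233101-82291416, carries its whole CDS of 3693 nt in 1 exon, and *Irs2*, at chr8:10984681-11008458, carries 3963 nt in 2 exons. The annotated 5′-UTR was longest in *Irs1*, at 923 nt with 5 upstream AUGs. It was 489 nt with 1 upstream AUG in *Insr*, 473 nt with 2 in *Insrr*, 32 nt with none in *Igf1r* and 28 nt with none in *Irs2*, against a median of 209 nt and 1 upstream AUG over the 163 signalling genes matched. Of the *Irs2* CDS, 162 bases also lie under an exon of the gene 9530052E02Rik on the opposite strand, and the counting was not stated to use strand. The isoforms the authors counted may differ from these. Annotated 5′-UTRs may also be incomplete, since the paper's 5′ RACE gave longer ones than annotated for *Ptch1*, *Gli1*, *Wwc1* and *Sav1*. The short 5′-UTRs of *Igf1r* and *Irs2*, and their lack of upstream AUGs, hold for this annotation only.

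In the mesoderm, *Igf1r* had the most mRNA of the 5 genes and *Insrr* very little. *Igf1r* mRNA was 5890, 7470 and 7364 normalized reads in replicates 1 to 3, and *Insr* mRNA was 1951, 1911 and 2169. *Insrr* mRNA was 127, 144 and 165 normalized reads, the lowest of the family in every library. The adaptors lay between the receptors, with *Irs1* at 3011, 3407 and 4220 normalized reads of mRNA and *Irs2* at 2779, 3639 and 3683. Per kb of counted CDS, mean mRNA was 1707 ± 218 normalized reads for *Igf1r*, 976 ± 170 for *Irs1*, 863 ± 131 for *Irs2*, 496 ± 34.3 for *Insr* and 37.9 ± 4.94 for *Insrr* (SD, n = 3). *Irs1* and *Irs2* overlapped in this order, and the other neighbours did not.

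In the mesoderm, TE was past the test below the median gene for *Igf1r*, *Insrr* and *Irs2*, and not for *Insr* and *Irs1*. *Igf1r* RPFs were 5138, 2817 and 4799 normalized reads, below its mRNA in every replicate. Its log2 TE was -0.78 (SE 0.23, adjusted p = 0.011 in limma). *Insr* RPFs were 1847, 1033 and 1883 normalized reads, and its log2 TE of -0.42 (SE 0.20) was not past the test (adjusted p = 0.078). In both receptors replicate 2 held the fewest RPFs.

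*Insrr* had the lowest TE of the family in the mesoderm. Its RPFs were 46.2, 41.5 and 76.8 normalized reads, which stand for 31, 20 and 34 sequenced reads, so counting error is large. Its log2 TE of -1.47 (SE 0.25, adjusted p = 0.00043) was at percentile 12.6 of all genes and just inside the 3-fold limit, so it was past the test but not TE-low. Without replicate 3, it was -1.64 and TE-low (adjusted p = 0.00035).

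The adaptors differed from each other in the mesoderm. *Irs2* RPFs were 2048, 1255 and 2545 normalized reads, with a log2 TE of -0.87 (SE 0.22, adjusted p = 0.0055). *Irs1* RPFs were 2692, 2552 and 3877 normalized reads, with a log2 TE of -0.27 (SE 0.17, adjusted p = 0.19). By replicate, log2 TE was -0.20, -0.45 and -0.16 for *Irs1* and -0.47, -1.57 and -0.57 for *Irs2*, so *Irs2* lay lower in each pair. The difference between the 2 adaptors was not tested.

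In all, 3 of the 5 genes were past the test below the median in the mesoderm, where 34.2% of all genes were (and 32.0% above it), and 0 of 5 were TE-low, where 10.9% of all genes were. With only 5 genes, the first share cannot be set apart from its background. Replicate 2 weighed on the size of the lower values. Without it, log2 TE was -0.46 for *Igf1r* and -0.53 for *Irs2*, each still past the test (adjusted p = 0.0073 and 0.0017). Mesoderm replicate numbers pair the libraries of 1 sort, and without that pairing *Igf1r* was no longer past the test (adjusted p = 0.054).

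**Figure D1:**
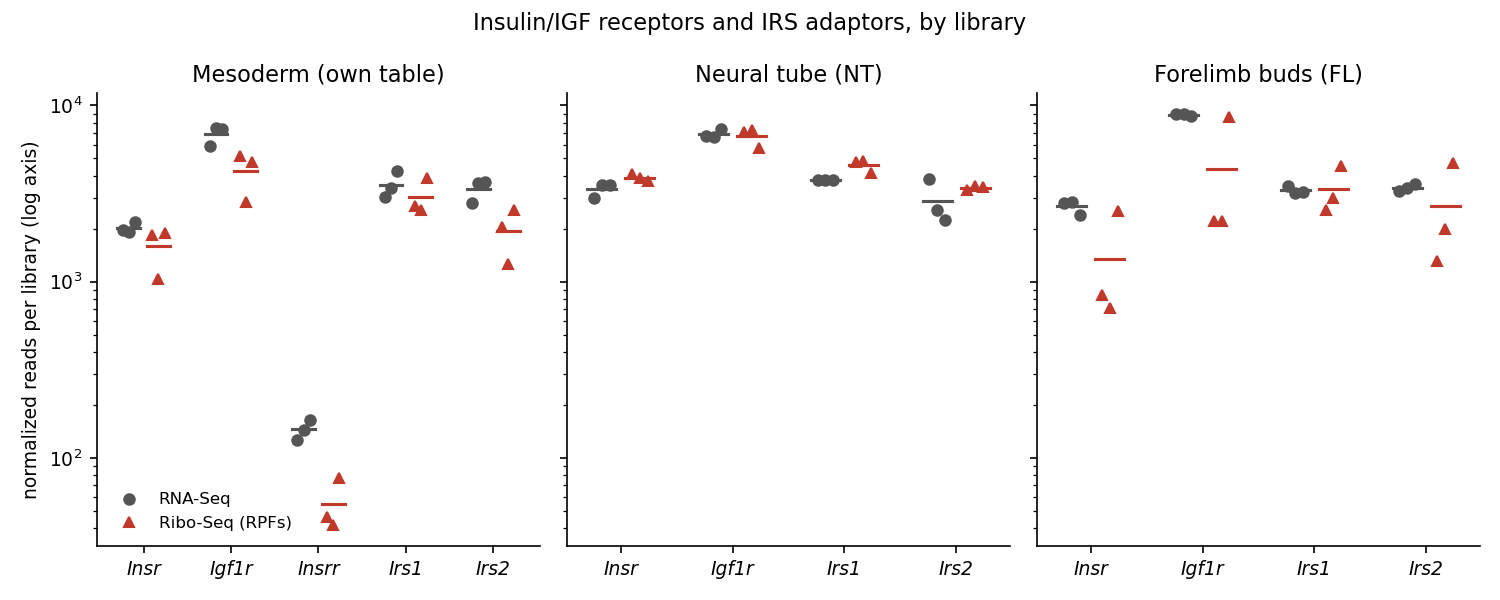
Normalized reads per library on a log axis for RNA-Seq (grey circles) and Ribo-Seq (red triangles), with 1 point per replicate and a bar at the mean, in mesoderm, NT and FL; the mesoderm table was normalized separately from the others. In FL, RPFs of *Insr* (708 to 2508) and *Igf1r* (2202 to 8646) spread widely, while their mRNA points lie close together.

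In the NT, all 4 genes measured had a TE close to that of the median gene. *Insr* had 2968, 3541 and 3534 normalized reads of mRNA and 4082, 3895 and 3717 of RPFs, and *Igf1r* had 6738, 6604 and 7309 of mRNA and 7031, 7236 and 5740 of RPFs. Log2 TE was 0.19 for *Insr* (SE 0.36, adjusted p = 0.71) and -0.08 for *Igf1r* (SE 0.40, adjusted p = 0.90). They sat at percentiles 59.2 and 45.8 of all genes.

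*Irs1* mRNA was 3753, 3754 and 3797 normalized reads, and its RPFs were 4803, 4829 and 4126, higher than mRNA in every replicate. *Irs2* mRNA was 3805, 2564 and 2240, with replicate 1 apart from the other two, and its RPFs were 3296, 3482 and 3465. Their log2 TE was 0.25 (*Irs1*, SE 0.21, adjusted p = 0.40) and 0.26 (*Irs2*, SE 0.36, adjusted p = 0.62). No member was past the test below the median in the NT in limma, edgeR or DESeq2, and 0 of 4 had an unadjusted p under 0.05. Of all genes, 15.1% were past the test below the median, 10.9% above it, and 4.13% were TE-low. By mean mRNA per kb, the order was *Igf1r* (1701 ± 92.5), *Irs1* (1037 ± 6.88), *Insr* (825 ± 81.0) and *Irs2* (735 ± 212, SD, n = 3), in which *Insr* and *Irs2* overlapped.

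In the FL, both receptors had fewer RPFs than their mRNA level would give at the tissue's median TE, in 2 of 3 replicates. *Insr* mRNA was 2794, 2847 and 2384 normalized reads and its RPFs were 839, 708 and 2508. *Igf1r* mRNA was 8937, 8928 and 8739, and its RPFs were 2202, 2212 and 8646. RPFs of replicates 1 and 2 lay far below mRNA for both genes, and those of replicate 3 lay at the mRNA level. Log2 TE by replicate was -1.74, -2.01 and 0.07 for *Insr* and -2.03, -2.02 and -0.02 for *Igf1r*. Libraries were paired here by replicate number, which is not known to mark the same embryos in the FL.

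Over all 3 replicates, log2 TE in the FL was -1.23 for *Insr* (SE 0.36, adjusted p = 0.011) and -1.35 for *Igf1r* (SE 0.40, adjusted p = 0.011). These 2 of 4 genes were past the test below the median, as were 29.5% of all genes (and 28.8% above it), and 0 of 4 were TE-low, as were 13.4%. Leaving out FL replicate 1 or FL replicate 2 ended both calls, with adjusted p between 0.11 and 0.13. Without Ribo-Seq replicate 3, log2 TE was -1.80 for *Insr* (SE 0.16, adjusted p = 1.4e-06) and -2.01 for *Igf1r* (SE 0.15, adjusted p = 3.5e-07), and both were TE-low, as were then 18.1% of all genes.

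In the FL, *Irs1* was near the median TE and *Irs2* lay between it and the receptors. *Irs1* mRNA was 3476, 3204 and 3211 normalized reads and its RPFs were 2546, 2990 and 4516, with a log2 TE of -0.02 (SE 0.21, adjusted p = 0.93) and, without Ribo-Seq replicate 3, of -0.26 (SE 0.15, adjusted p = 0.12). *Irs2* mRNA was 3254, 3412 and 3591 and its RPFs were 1308, 1986 and 4724. Its log2 TE was -0.57 (SE 0.36, adjusted p = 0.19), and -1.09 without that library (SE 0.23, adjusted p = 0.0008), when 3 of the 4 members and 35.4% of all genes were past the test below the median. By mean mRNA per kb, the order in the FL was *Igf1r* (2191 ± 27.7), *Irs1* (908 ± 42.7), *Irs2* (876 ± 43.3) and *Insr* (660 ± 62.5, SD, n = 3), with *Irs1* and *Irs2* overlapping.

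**Figure D2:**
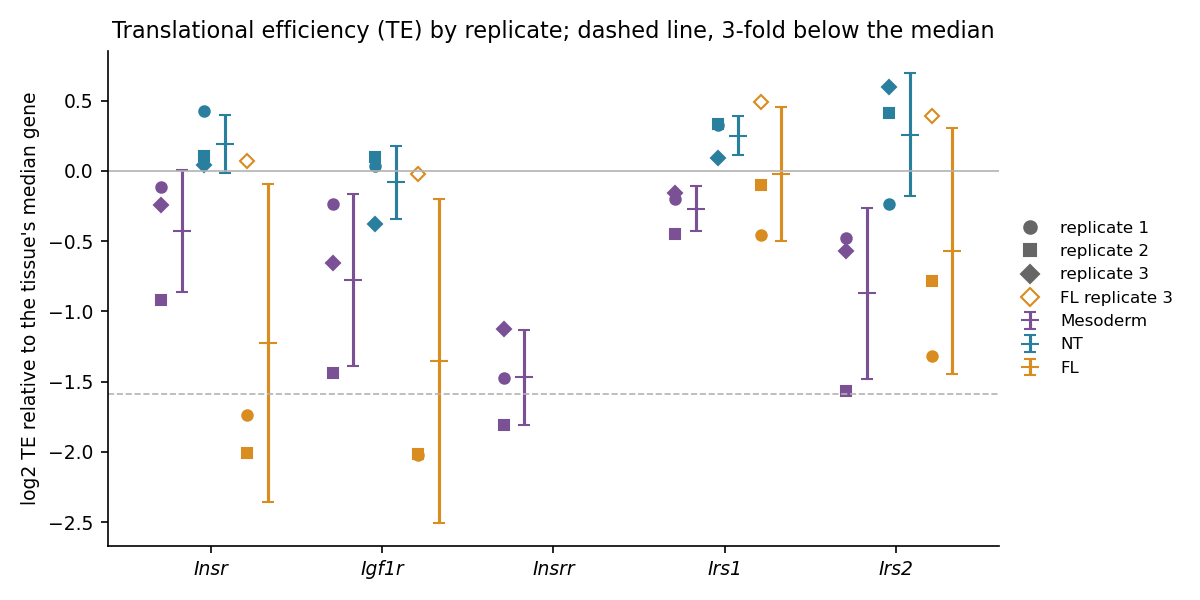
Log2 TE of each gene relative to the median gene of its tissue (y axis) by replicate number, with the mean and SD (n = 3) beside the points, for mesoderm, NT and FL. FL replicate 3, drawn open, lies at 0.07 for *Insr* and -0.02 for *Igf1r*, far above the other FL points at -1.74 to -2.03. Points and SDs pair libraries by replicate number, which in NT and FL is not known to mark the same embryos.

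Between FL and NT, the mRNA of the 4 genes had log2 differences from -0.32 to 0.37. *Igf1r* mRNA was higher in FL by a log2 difference of 0.37 (SE 0.40, adjusted p = 0.61), and *Irs2* mRNA by 0.29 (SE 0.36, adjusted p = 0.67). *Insr* and *Irs1* had log2 differences of -0.32 (SE 0.36, adjusted p = 0.62) and -0.19 (SE 0.21, adjusted p = 0.61). No member was past the test in limma, edgeR or DESeq2, and 0 of 4 had an unadjusted p under 0.05, whereas 12.3% of all genes were lower and 10.3% higher in FL.

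The individual libraries were nevertheless separate for 3 of the 4 genes. The 3 FL libraries lay below the 3 NT libraries for *Insr* and *Irs1*, as for 24.1% of all genes, and above them for *Igf1r*, as for 23.3% of all genes. RNA-Seq and Ribo-Seq libraries shared 1 spread in this fit. In a fit to the RNA-Seq libraries alone, *Igf1r* was past the test (adjusted p = 0.033), beside 16.3% of all genes higher in FL, and *Insr* was not (adjusted p = 0.10), beside 17.9% lower in FL. *Igf1r* mRNA was also past the test when Ribo-Seq replicate 3 of FL was left out (adjusted p = 0.049, beside 14.4% of all genes higher in FL), but not in edgeR without it (adjusted p = 0.077).

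RPFs gave a larger difference between the tissues than mRNA, and *Insr* led it. All 3 FL libraries, at 708 to 2508 normalized reads, were below all 3 NT libraries, at 3717 to 4082. The log2 difference for *Insr* was -1.77 (SE 0.36, adjusted p = 0.0016), the only one past the test of 4, beside 22.7% of all genes lower in FL, and the libraries were separate in this direction for 21.1% of all genes. Leaving out any 1 replicate kept *Insr* past the test, with log2 differences from -1.42 to -2.34.

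For the other 3 genes, FL replicate 3 reached the NT libraries. *Igf1r* had a log2 difference in RPFs of -0.93 (SE 0.40, adjusted p = 0.072), *Irs1* of -0.49 (SE 0.21, adjusted p = 0.072) and *Irs2* of -0.56 (SE 0.36, adjusted p = 0.21). Without that library all 4 genes were past the test, beside 32.0% of all genes lower in FL, at -2.34 for *Insr*, -1.59 for *Igf1r*, -0.73 for *Irs1* and -1.08 for *Irs2* (adjusted p from 1.1e-07 to 0.001).

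For the change in TE from NT to FL, fitted as an interaction, a call required an adjusted p below 0.2 and a 2-fold size. The value was -1.45 for *Insr* (SE 0.51, adjusted p = 0.29), -1.30 for *Igf1r* (SE 0.56, adjusted p = 0.29), -0.85 for *Irs2* (SE 0.51, adjusted p = 0.33) and -0.30 for *Irs1* (SE 0.30, adjusted p = 0.53). No member was called in limma, edgeR or DESeq2, and 0.276% of all genes were called lower in FL in limma. An unadjusted p under 0.05 in limma was reached by 2 of 4 (*Insr* and *Igf1r*), and how many of all genes reached it was not counted. With the replicate number as a block, no member was called either, and the genes called over the table numbered 6 or 4 in place of 45, for a block over both tissues or within each. Still, *Insr* lay at percentile 5.1 and *Igf1r* at percentile 7.0 of the differences of all genes.

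Leaving out FL Ribo-Seq replicate 3 turned 3 of the 4 into calls. The change in TE was then -2.01 for *Insr* (SE 0.22, adjusted p = 0.00026), -1.95 for *Igf1r* (SE 0.20, adjusted p = 0.00016) and -1.37 for *Irs2* (SE 0.30, adjusted p = 0.0046), while *Irs1*, at -0.54 (SE 0.20, adjusted p = 0.047), stayed under 2-fold. Calls lower in FL then covered 19.8% of all genes and calls higher in FL 16.5%, so calls in both directions were common in that setting. Without NT replicate 3, *Insr* alone was called, at -1.52 (adjusted p = 0.19 in limma). The share of all genes called in that setting is not given here, so this call cannot be set against a background.

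**Figure D3:**
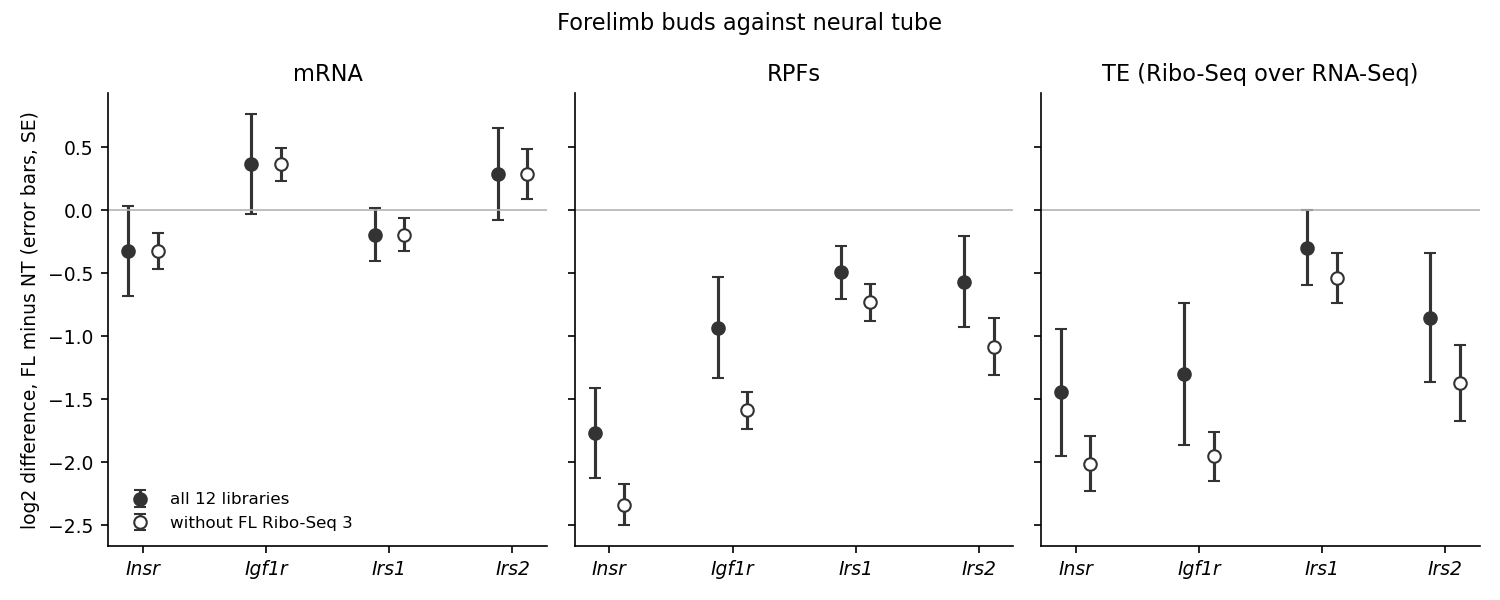
Log2 difference of FL minus NT (points, error bars SE) in mRNA, RPFs and TE for the 4 genes measured in both tissues, with all 12 libraries (filled) and without FL Ribo-Seq replicate 3 (open). In the TE panel *Insr* moves from -1.45 to -2.01 and *Igf1r* from -1.30 to -1.95, and *Irs1* stays nearest to 0.

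FL Ribo-Seq replicate 3 differed from replicates 1 and 2 by at least 2-fold for 33.0% of all genes, in both directions. *Igf1r* RPFs were 3.92-fold and *Insr* RPFs 3.25-fold higher in it, at percentiles 96.1 and 93.3 of all genes. *Irs2* was 2.93-fold and *Irs1* 1.64-fold higher. The RNA-Seq library of the same number did not move in this way, at 0.978 of the other two for *Igf1r* and 0.845 for *Insr*.

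FL and NT libraries can also be compared within the less and the more RNA-like Ribo-Seq libraries, with no test since each set leaves 1 library on a side. Against NT replicate 3, the mean of FL replicates 1 and 2 had log2 RPF differences of -2.27 for *Insr*, -1.38 for *Igf1r*, -1.10 for *Irs2* and -0.58 for *Irs1*. For FL replicate 3 against NT replicates 1 and 2, they were -0.67 for *Insr*, 0.28 for *Igf1r*, 0.48 for *Irs2* and -0.09 for *Irs1*. *Insr* and *Irs1* were below 0 in both sets, and *Igf1r* and *Irs2* differed in sign between them. With mRNA taken off, the TE differences in the former set were -1.95 for *Insr*, -1.75 for *Igf1r*, -1.39 for *Irs2* and -0.39 for *Irs1*. In the latter set they were -0.35 for *Insr*, -0.09 for *Igf1r*, 0.19 for *Irs2* and 0.10 for *Irs1*, so those of both adaptors turned sign. The part of this likeness to RNA-Seq in the difference between tissues was not tested.

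Across the mesoderm and the other tissues, TE is set side by side without a test, since the 2 tables were normalized and fitted separately. *Insr* had a mean log2 TE of -0.42 ± 0.44 in the mesoderm, 0.19 ± 0.21 in NT and -1.23 ± 1.13 in FL (SD, n = 3). *Igf1r* had -0.78 ± 0.61, -0.08 ± 0.26 and -1.35 ± 1.16, *Irs1* -0.27 ± 0.16, 0.25 ± 0.14 and -0.02 ± 0.48, and *Irs2* -0.87 ± 0.61, 0.26 ± 0.44 and -0.57 ± 0.87. These SDs pair RNA-Seq and Ribo-Seq libraries by replicate number, which in NT and FL is not known to mark the same embryos. The FL values without Ribo-Seq replicate 3 were -1.80, -2.01, -0.26 and -1.09 for *Insr*, *Igf1r*, *Irs1* and *Irs2*. Each of the 4 had its highest mean in NT, and the means of *Irs1* spanned the least, with and without that library. How many of all genes were highest in NT was not counted. Medians in mesoderm, NT and FL were -0.32 (42 genes), -0.07 and -0.58 (36 genes each) for other receptor tyrosine kinases. They were -1.43, -1.16 and -1.39 for PI3K-Akt genes and -0.22, -0.26 and 0.01 for Ras-ERK genes. For FL replicate 3 against NT replicates 1 and 2, TE was higher in FL for *Irs1* (0.10) and *Irs2* (0.19), and lower for *Insr* and *Igf1r*.

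Among the 150 other signalling genes measured in all 3 tissues, the genes nearest to each member in log2 TE were found by Euclidean distance over the 3 tissue values. *Insr* was nearest to *Met*, the hepatocyte growth factor receptor (distance 0.40), and then to *Igf1r* (0.46). *Igf1r* was nearest to the phospholipase C gene *Plcb1* (0.25). *Irs1* was nearest to the receptor gene *Ror2* (0.40) and the GTPase gene *Nras* (0.43), and *Irs2* to the kinase gene *Mapk8* (0.38) and the collagen receptor gene *Ddr1* (0.48). *Insrr* was searched among 169 genes by its mesoderm value alone, and its nearest were *Araf* (0.01) and *Pik3r5* (0.03). With all libraries, these distances were of the order of the SE of the TE values or below it. Which gene was nearest is therefore uncertain. Without FL Ribo-Seq replicate 3, *Plcb1* was still nearest to *Igf1r* (0.33) and *Ror2* to *Irs1* (0.41), whereas *Insr* was nearest to *Plcb1* (0.49) and then *Igf1r* (0.49), and *Irs2* to *Ephb3* (0.51) and *Erbb3* (0.55), both receptor tyrosine kinase genes.

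*Igf2r*, which encodes the receptor that takes up IGF2 for degradation, differed from the members in its mRNA and in a higher TE. As for *Insr* and *Igf1r*, its TE was highest in NT and lowest in FL. Its mRNA was higher in FL than in NT by a log2 difference of 1.39 (SE 0.27, adjusted p = 0.0018), while its RPFs differed by 0.43 (SE 0.27, adjusted p = 0.21). Its log2 TE was past the test above the median in the mesoderm, at 0.66 (SE 0.22, adjusted p = 0.022), and in NT, at 1.10 (SE 0.27, adjusted p = 0.012), and was 0.17 in FL (SE 0.27, adjusted p = 0.61), or -0.23 without FL Ribo-Seq replicate 3 (SE 0.14, adjusted p = 0.15). Its change in TE from NT to FL was -0.96 (SE 0.38, adjusted p = 0.29), and -1.35 without FL Ribo-Seq replicate 3 (SE 0.19, adjusted p = 0.00061), which was then a call.

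The list of PI3K and Akt genes had a low median TE in all 3 tissues, at -1.43 in the mesoderm, -1.16 in NT and -1.39 in FL, against 0.00 over all genes. It holds the class IA subunits and Akt kinases that act downstream of IRS proteins, and also *Pik3r5*, which pairs with a G-protein-coupled PI3K, and *Pik3r4*, a subunit of the class III enzyme. In the mesoderm, 10 of 12 genes were past the test below the median (34.2% of all genes) and 3 were TE-low (10.9%). These 3 were the catalytic subunits *Pik3cd* (-2.05) and *Pik3ca* (-1.75) and the regulatory subunit *Pik3r2* (-1.67). The highest was *Pik3r1*, the main regulatory subunit, at 0.22 (adjusted p = 0.27).

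In FL, 10 of the 12 were past the test below the median (29.5% of all genes) and 5 were TE-low (13.4%): *Pik3cd* (-3.04), *Pik3r5* (-2.34), *Pik3ca* (-2.27), *Pik3cb* (-2.18) and *Pik3r4* (-2.07). In NT, 3 of 12 were past the test (15.1% of all genes), the kinase genes *Akt1* (-1.48) and *Akt2* (-1.20) and *Pik3r2* (-1.38), and none was TE-low. Without FL Ribo-Seq replicate 3, which changes the spread both tissues share, the NT count was 7 of 12 (22.2% of all genes) and 1 was TE-low.

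Between FL and NT, the mRNA of 2 of these 12 genes was past the test (12.3% of all genes), both lower in FL, with *Pik3cd* at -2.22. In RPFs, 6 of 12 were lower (22.7%), from *Pik3cd* at -3.88 to *Pik3r1* at -1.21, and *Akt2* was higher at 0.52. For the change in TE, 0 of 12 were called in limma (1 of 12 had an unadjusted p under 0.05, a share not counted over all genes). Without FL Ribo-Seq replicate 3, 4 of 12 were lower in mRNA (16.4% of all genes), 8 of 12 in RPFs (32.0%) and 6 of 12 in TE (19.8%).

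In the Ras-ERK arm, 5 of 13 genes were past the test below the median in the mesoderm and 3 above, shares close to or below those of all genes (34.2% and 32.0%), with a median log2 TE of -0.22. The exchange factor *Sos2* was the lowest, at -2.15, and TE-low, and *Grb2*, the adaptor that binds IRS proteins, was the highest, at 1.06. In FL the counts were again 5 and 3 of 13, beside 29.5% and 28.8% of all genes, with *Sos2* at -2.27 and TE-low, and *Grb2* at 1.57. In NT, 3 of 13 were past the test below the median and 0 above, beside 15.1% and 10.9% of all genes. In mRNA, 2 of 13 were past the test, lower in FL (12.3% of all genes): *Grb2* at -0.98 and *Mapk3* at -0.76. RPFs were lower in FL for 2 of 13 (22.7% of all genes), with *Sos2* at -1.44, and the change in TE was called for 0 of 13 in limma (0 with an unadjusted p under 0.05). Without FL Ribo-Seq replicate 3, the NT counts were 4 below (22.2% of all genes) and 3 above the median (19.8%), RPFs were lower for 4 (32.0%) and higher for 2 (32.7%), and the change in TE was called lower for 2 (19.8%) and higher for 2 (16.5%).

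Other receptor tyrosine kinases were spread around the members. In the mesoderm, 16 of 42 were past the test below the median, close to the 34.2% of all genes, and 8 above (32.0%), with a median log2 TE of -0.32, and *Aatk* (-2.72), *Ryk* (-2.30), *Fgfr3* (-1.84) and *Epha8* (-1.71) were TE-low. The median of the 5 insulin/IGF genes was -0.78, below that median but within the range of -2.72 to 1.31. In FL, 12 of 36 were past the test below the median, close to the 29.5% of all genes, and 2 above (28.8%), with a median of -0.58, against -0.90 for the 4 insulin/IGF genes. Without FL Ribo-Seq replicate 3, the FL count below the median was 26 of 36 (35.4% of all genes), and the medians were -0.94 and -1.44. In NT the medians were -0.07 for 36 receptors and 0.22 for the 4 genes.

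Between FL and NT, 6 of the 36 other receptors were lower in mRNA (12.3% of all genes) and 15 higher (10.3%), from *Ntrk2* at -3.04 to *Pdgfra* at 4.52, and 0 of the 4 insulin/IGF genes were past the test. In RPFs, 8 were lower (22.7%) and 15 higher (22.6%). The change in TE was called for 0 of 36 in limma (5 with an unadjusted p under 0.05, a share not counted over all genes). With FL Ribo-Seq replicate 3 left out, it was called lower for 12 (19.8%) and higher for 1 (16.5%).

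**Figure D4:**
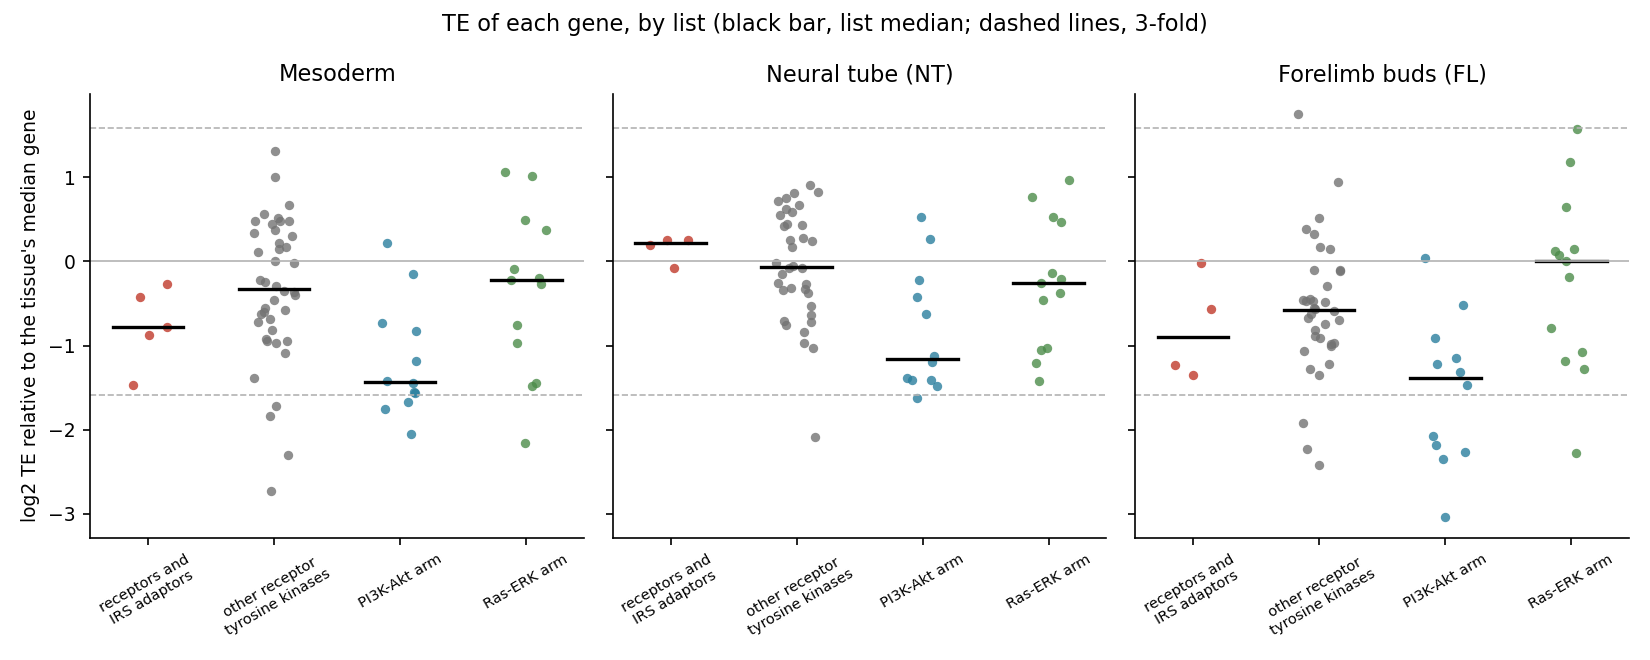
Log2 TE relative to the median gene (y axis) of each gene in 4 lists in mesoderm, NT and FL, with 1 point per gene, a black bar at the list's median and dashed lines at 3-fold. The PI3K-Akt list has its median at -1.43 in the mesoderm, -1.16 in NT and -1.39 in FL. The insulin/IGF genes lie above it, at -0.78 (5 genes), 0.22 and -0.90 (4 genes each, without *Insrr*). Without FL Ribo-Seq replicate 3, the FL medians are -1.50 for the PI3K-Akt list and -1.44 for the insulin/IGF genes.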

How the data were processed

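The deposited signal values are normalized reads. Per the paper's methods, the authors aligned reads to 1 UCSC isoform per gene (mm10) and retained those with a unique place. Bowtie2 is named in the submitters' processing notes. The first 15 and last 5 codons were excluded from counting, and counts were scaled by DESeq library sizes.

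From log2(normalized reads + 1), limma 3.58.1 (R 4.3.3) with a mean-variance trend was fitted over all genes of a table, with Benjamini-Hochberg adjustment over that table. Mesoderm TE had the replicate number as a block, since RNA-Seq and Ribo-Seq shared the sorted cells and their deviations from the group means correlated at 0.74, 0.58 and 0.57. NT and FL were fitted as 12 libraries without a block. They were dissected from the same embryos and neural tube cells were divided between both library types, but no source says that a replicate number marks the same embryos, so fits with a block were an alternative. Reads were recovered as whole numbers in all 18 libraries (100.0% of low values within 0.02 normalized reads) and were tested with edgeR 4.0.16 and DESeq2 1.42.0. The models were tested on simulated data. Python 3.11.15, pandas 2.3.3 and numpy 2.4.6 did the rest. Adding 1 before the logarithm understates the change of low genes such as *Insrr*. Replicates were compared by read counts, and none was a duplicate.

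The genes, lists, tests and alternatives were chosen with earlier results of these data known. Named genes were the 5 members, the called, lowest or highest genes of each list, and the 2 nearest in TE. Values of some of these genes are not reported here. Symbols came from the paper's table of 170 signalling genes, of which 163 matched a GENCODE coding transcript. A wider list of ligands and binding proteins was not used, because symbols were not paired with all identifiers.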

Additional observations from a re-analysis of the deposited data

How the results depend on the processing

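With the pseudocount at 0.1 or 8, a minimum of 100 normalized reads on average, edgeR or DESeq2 on all recovered reads, the replicate block, or the difference centred on its median, the numbers of members called equalled those of the report: 0 TE-low in the mesoderm, NT and FL, 0 for mRNA, 1 for RPFs (*Insr*) and 0 for the change in TE. *Igf1r* TE in FL was past the test in limma and DESeq2 but not in edgeR (adjusted p = 0.059). Leaving out 1 replicate at a time gave 0 to 1 TE-low member in the mesoderm, 0 to 2 in FL, 1 to 4 for RPFs and 0 to 3 for the change in TE, with the highest in each NT and FL range reached without FL replicate 3. Alternatives added after seeing the data left out FL Ribo-Seq replicate 3, with 2 TE-low members in FL, 4 called for RPFs and 3 for the change in TE in both limma and edgeR, and 1 for mRNA (*Igf1r*) in limma. The RNA-Seq libraries alone also gave 1 for mRNA, again *Igf1r*. Values near 0 changed sign: *Igf1r* TE in NT ran from -0.18 without NT replicate 2 to 0.068 without NT replicate 3, and *Irs1* TE in FL was 0.19 without FL replicate 1 and 0.0075 without FL replicate 2. Over the whole table, genes called for the change in TE numbered 45 in the report's fit, 856 in DESeq2, 4072 without FL Ribo-Seq replicate 3 (4042 in edgeR) and 0 to 3972 over the replicates left out. TE-low and TE-high genes in FL numbered 2204, and 3451 without that library (3420 in edgeR), with 1441 to 3421 over the replicates left out. Genes called for mRNA numbered 2542, and 3848 in the RNA-Seq libraries alone. Those for RPFs numbered 5085, and 3174 in the Ribo-Seq libraries alone, with a lowest count of 2899 without FL replicate 2.

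Same-numbered NT and FL libraries did not deviate together: deviations of same-numbered Ribo-Seq libraries correlated at -0.29, -0.50 and -0.58, and of RNA-Seq libraries at -0.02, -0.22 and -0.24. Within tissues, RNA-Seq and Ribo-Seq of 1 number had -0.28, 0.35 and 0.05 in NT and 0.05, 0.12 and 0.09 in FL. A replicate block over both tissues left 6 genes called for the change in TE and a block within each tissue 4, with no member called in either. *Insr* and *Igf1r* kept adjusted p from 0.01 to 0.017 for TE in FL under both blocks. In the mesoderm, the fit without the block gave no TE-low member, and *Insr*, at an adjusted p of 0.25, stayed short of the test.

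Depth limited *Insrr* most, with 20 to 34 Ribo-Seq reads per library. Intervals and errors cover these samples only, and 3 replicates per group allow no outlier check.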
